A study of Drosophila melanogaster with 12 samples.

Results

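The genes described here were chosen by name and by level: a symbol that starts with CR and a digit, lncRNA: or asRNA:, and 5 TPM or more in at least 3 of the 12 libraries. TPM (transcripts per 1000000 transcripts) is a level corrected for transcript length and library size. Of 14323 genes in the table, 279 carried such a name and 16 met the rule. Names of this kind are given in Drosophila to genes without a coding product, and the set was proposed as long noncoding RNA genes of the gland. The annotation did not bear that name out: all 16 members were annotated as pseudogenes, both by Ensembl and by RefSeq. Of the 279 named genes, 278 were annotated as pseudogenes and 1, lncRNA:CR46475, as a noncoding RNA, and it did not reach the level the rule asks for. The 16 are therefore called transcribed pseudogenes below. The classical long noncoding RNAs, such as the roX RNAs of dosage compensation, were not analysed here. Ensembl annotates 3304 noncoding RNA genes, and only 1 gene with these names in the table was among them. Whether the gland makes long noncoding RNAs therefore cannot be read from this set.

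The libraries came from accessory glands of virgin Drosophila melanogaster males, the paired organ that makes most of the seminal fluid proteins, dissected at 10 days. All 4 groups had 3 libraries each, were y,w and carried a heat-shock flippase (hs-flp12), UAS-P35 and UAS-GFP with a nuclear signal. All, control included, were reared at 25 °C and given a heat shock of 20 minutes at 37 °C. They used an actin promoter Gal4 (Act>CD2>gal4) that acts only in cells where heat shock had removed a stop cassette. The glands were therefore mosaics of transgene-expressing and other cells, and the driver is not restricted to the gland. P35, a baculovirus inhibitor of caspases, was present in the control glands too. Myc+E2f/Dp glands carried UAS E2F1, UAS-Dp and UAS-dMyc, which encode the growth regulator Myc and both parts of the cell cycle factor E2F. Yki*+Dp glands carried UAS E2F1, UAS-Dp and a UAS-Yki changed at 3 residues (Yki*), an active form of the Hippo pathway coactivator Yorkie. Yki-WT glands carried UAS-yki, and control glands carried no further transgene. Each library pooled 80 to 100 glands by the methods, and nothing in the labels says how replicates were separated, so the p-values measure the spread between these libraries, which may be technical.

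The transgenes were visible in the libraries. E2f1 was at 795 to 1021 TPM in Myc+E2f/Dp glands, against 16.5 to 21.2 TPM in control glands, but only at 18.5 to 22.8 TPM in Yki*+Dp glands, whose label lists UAS E2F1. Dp was at 618 to 1449 TPM in Myc+E2f/Dp glands and at 1866 to 2548 TPM in Yki*+Dp glands, against 19.0 to 24.5 TPM in control glands. The yki gene was at 348 to 431 TPM in Yki*+Dp glands and at 70.5 to 163 TPM in Yki-WT glands, against 14.2 to 16.5 TPM in control glands. It was also at 55.9 to 175 TPM in Myc+E2f/Dp glands, whose label lists no yki transgene, and the part of this in the results below was not tested. Markers of main cells, the bulk of the gland, summed to 50744 to 63954 TPM in every library, and fat body markers to at most 2.05 TPM.

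A pseudogene is a copy of a gene that has lost the ability to make the full protein. Some arise by duplication and keep introns, others by reverse transcription of an mRNA and lack them, and many are never transcribed. Transcripts that pseudogenes do make can be spliced and polyadenylated like mRNAs, can carry early stop codons that draw RNA surveillance, and in flies can pair with other RNAs where the copy lies in antisense. Reads from a near-identical parent or sister copy cannot always be assigned to one copy, so the levels of pseudogenes are less certain than those of single-copy genes.

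Most of the named genes were silent or nearly so. Of the 279, 50 were listed at 0 TPM in every library, 253 never reached 5 TPM and 10 reached it in 1 or 2 libraries only. Just outside the rule, the third-highest library of CR14117 was at 4.85 TPM and that of CR43158 at 4.82 TPM. Just inside it, the third-highest library of CR31292 was at 5.18 TPM. A level of 5 TPM or more in all 12 libraries was reached by 5 members, CR43087, CR34285, CR43086, CR6900 and CR18228.

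The members lay on every large chromosome arm, 5 each on 3L and 3R, 3 on X, 2 on 2R and 1 on 2L. Their annotated transcripts were 135 to 2100 bases long. A transcript of 2 or more exons was annotated for 12 members, and only single-exon transcripts for CR44391, CR46415, CR41597 and CR14033. The libraries had been selected for poly-A RNA.

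**Figure D1:**
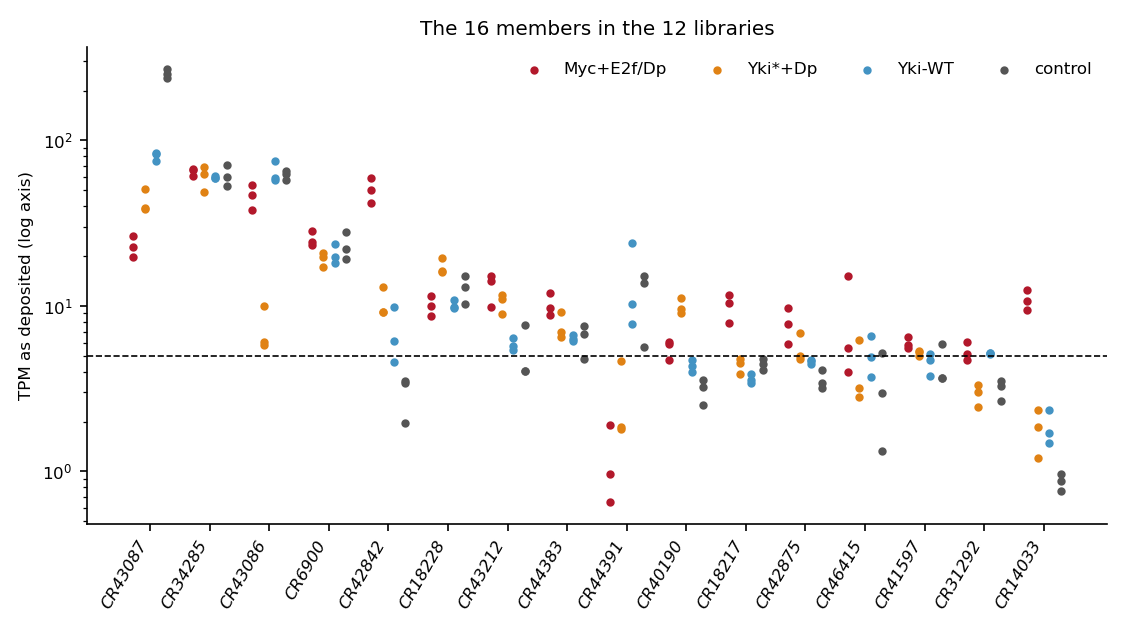
TPM of each member in each of the 12 libraries, on a log axis, with members ordered by their mean over all libraries and groups by colour. The dashed line is the 5 TPM of the rule. CR43087 spans the widest range among the abundant members, with the 3 control libraries at the top and the 3 Myc+E2f/Dp libraries at the bottom, while CR34285 stays between 49.1 and 70.8 TPM.

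The members together made up 0.0199% to 0.0508% of all TPM, and 1 gene dominated them in control glands. The 16 summed to 298 ± 25.4 TPM in Myc+E2f/Dp, 212 ± 12.6 TPM in Yki*+Dp and 297 ± 9.0 TPM in Yki-WT glands, against 462 ± 42.4 TPM in control glands (SD, n = 3 each). CR43087 alone held 7.71%, 20.2% and 27.1% of that sum in Myc+E2f/Dp, in Yki*+Dp and in Yki-WT glands, against 54.9% in control glands. Without CR43087 and its neighbour CR43086 the sum was 228 ± 19.3, 162 ± 6.92 and 153 ± 12.2 TPM, against 146 ± 22.5 TPM in control glands. In whole glands, fewer cells that express a gene and less of its RNA per cell cannot be told apart.

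Differences were tested with limma on log2(TPM × library factor + 1), where the factor is a median of ratios over genes, and a gene was called at an adjusted p under 0.05 where the log2 fold change also reached 1 or -1. In Myc+E2f/Dp against control, 2 of the 16 members were called higher (CR42842 and CR14033) and 4 lower (CR43087, CR44391, CR43086 and CR18228), where 7.15% of the 8128 genes tested were called higher and 5.94% lower (13.1% in all). In Yki*+Dp against control, 2 were called higher (CR42842 and CR40190) and 3 lower (CR43086, CR43087 and CR44391), against 5.52% and 1.46% of all genes (6.99% in all). In Yki-WT against control, 0 members were called higher and CR43087 alone was called lower, against 1.88% and 0.246% of all genes (2.13% in all), and 6 members had an adjusted p under 0.05 at any fold change. In Myc+E2f/Dp against Yki*+Dp, 3 were called higher (CR43086, CR42842 and CR14033) and 3 lower (CR43087, CR18228 and CR40190), against 5% and 5.52% of all genes (10.5% in all). A further comparison, Yki*+Dp against Yki-WT, was added after the values were seen. There 0 members were called higher and 3 lower (CR43086, CR43087 and CR44391), against 2.47% and 1.55% of all genes (4.02% in all), and 7 had an adjusted p under 0.05 at any fold change. The share of all genes at any fold change was not counted, so those 6 and 7 members stand without a background.

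The split between higher and lower calls changed on TPM as deposited in 3 of these comparisons. In Myc+E2f/Dp against control it became 4 higher (CR42842, CR14033, CR43212 and CR46415) and 2 lower (CR43087 and CR44391), where 28.8% of all genes were called higher and 1.33% lower. In Myc+E2f/Dp against Yki*+Dp it became 4 higher (CR43086, CR42842, CR14033 and CR18217) and 0 lower, where 10.3% and 2.87% of all genes were called. In Yki*+Dp against Yki-WT it became 1 higher (CR40190) and 2 lower (CR43086 and CR44391), beside 4.49% and 0.886% of all genes.

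These counts are a description, since a level entered the rule. CR14033, CR18217 and CR42875 would not have met it without the Myc+E2f/Dp libraries, CR40190 without the Yki*+Dp libraries and CR31292 without the Yki-WT libraries. For those members and groups values are given below with no test. CR44391 reached 5 TPM only in control and Yki-WT libraries, and CR42842 in no control library. The rule thus also leaned toward their differences, and their p-values are not independent of it. Comparisons that share the control libraries are likewise not independent of each other.

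Scaling mattered for small changes. With TPM as deposited, the median gene stood at a log2 fold change of 0.74 in Myc+E2f/Dp, 0.30 in Yki*+Dp and 0.05 in Yki-WT against control, while with the library factors it stood at 0.05 in Myc+E2f/Dp. The changes below are therefore given relative to the typical gene. The median member was at -0.08 in Myc+E2f/Dp, -0.11 in Yki*+Dp and 0.08 in Yki-WT against control, beside 0.05, -0.0029 and 0.0086 for all genes tested.

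**Figure D2:**
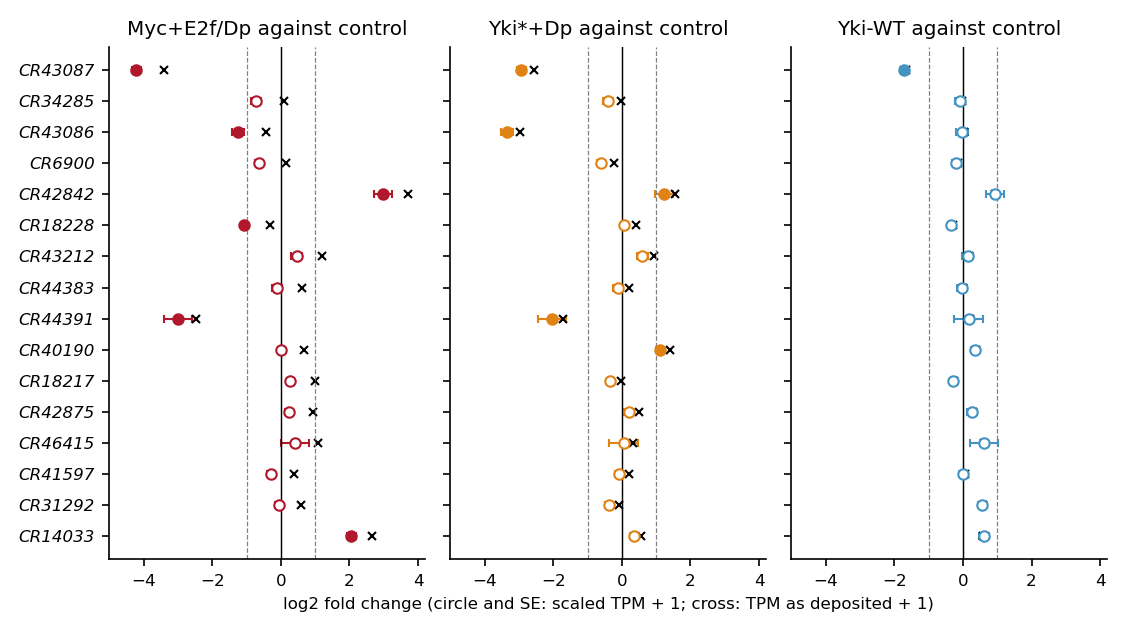
Log2 fold change of the 16 members in Myc+E2f/Dp, in Yki*+Dp and in Yki-WT, each against control. Circles and bars are the estimate and its SE on scaled values, filled where the member was called, crosses are the estimates on TPM as deposited, and dashed lines mark a log2 change of 1 either way. Crosses lie to the right of circles in the Myc+E2f/Dp panel, and CR43087 is the only filled circle in the Yki-WT panel.

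CR43087 was the most abundant pseudogene in control glands and fell in each of the other groups. It lies on 3L, from 17874715 to 17876573 on the plus strand (BDGP6), with a pair of annotated 3-exon transcripts, and all of its signal was assigned to the longer one of 999 bases. Its level was 22.6, 26.4 and 19.8 TPM in Myc+E2f/Dp glands, 38.7, 38.9 and 50.9 TPM in Yki*+Dp glands and 74.8, 83.7 and 82.9 TPM in Yki-WT glands, against 239, 271 and 251 TPM in control glands. The 4 groups formed a staircase, Myc+E2f/Dp lowest and control highest, in which no library of one group overlapped those of the next.

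Each step of that staircase was called. CR43087 changed by -4.21 ± 0.13 in Myc+E2f/Dp (log2, SE, adjusted p = 1.3e-09), by -2.93 ± 0.13 in Yki*+Dp (adjusted p = 1.4e-07) and by -1.70 ± 0.13 in Yki-WT (adjusted p = 2.9e-05), each against control. It was lower in Myc+E2f/Dp than in Yki*+Dp by a log2 change of -1.28 ± 0.13 (adjusted p = 1.3e-05), and lower in Yki*+Dp than in Yki-WT by -1.23 ± 0.13 (adjusted p = 1.1e-04). On TPM as deposited those last steps were smaller, -0.87 and -0.90, which misses the fold threshold with adjusted p = 8.0e-05 and 2.7e-04. No other member was called in all 3 comparisons with control.

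CR43086 lies 4142 bases upstream of CR43087 on the same strand (3L, 17868740 to 17870573), has the same 3-exon form, and behaved differently. Its level was 38.0, 46.5 and 54.0 TPM in Myc+E2f/Dp glands, 5.77, 6.02 and 9.99 TPM in Yki*+Dp glands and 74.7, 57.8 and 58.9 TPM in Yki-WT glands, against 58.0, 65.7 and 62.9 TPM in control glands. Yki*+Dp glands stood alone at the bottom and Yki-WT glands overlapped the control. In the fit CR43086 fell by 3.34 ± 0.17 (log2, SE) in Yki*+Dp against control (adjusted p = 2.9e-07) and by 3.32 ± 0.17 against Yki-WT (adjusted p = 8.1e-07). In Yki-WT against control its change was -0.03 ± 0.17 (adjusted p = 0.94).

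In Myc+E2f/Dp glands the call on CR43086 depended on the scaling. It was -1.24 ± 0.17 against control on scaled values (adjusted p = 1.0e-04) and -0.43 on TPM as deposited (adjusted p = 0.041), which is under the fold threshold. Against Yki*+Dp it was higher by 2.11 ± 0.17 (adjusted p = 2.1e-06). So the pair differed in opposite directions between these genotypes: CR43087 was lower and CR43086 higher in Myc+E2f/Dp than in Yki*+Dp.

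The transcripts of CR43086 also differed between groups in a way its gene level hid. Transcript FBtr0304978, of 1015 bases, was at 9.71, 9.36 and 2.81 TPM in Myc+E2f/Dp glands, listed at 0 in all 3 Yki*+Dp libraries, and at 49.7, 36.2 and 36.5 TPM in Yki-WT glands, against 0, 0 and 0.20 TPM in control glands. It carried most of the gene's signal in Yki-WT glands and next to none in control glands, although the gene totals overlapped. The other transcripts, FBtr0331812 and FBtr0345000, averaged 12.8 ± 1.38 and 10.2 ± 0.471 TPM in Yki-WT glands, against 35.0 ± 1.77 and 27.2 ± 2.26 TPM in control glands. These are estimates that divide reads among transcripts of similar length, and no test was run on them. The groups came from different transgenic stocks, so a difference in the DNA of this interval and an effect of the transgenes cannot be told apart.

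The coding genes on either side were called in none of the comparisons. CG34002, 8258 bases upstream of CR43086, averaged 819 ± 22.2, 635 ± 49.9 and 747 ± 26.8 TPM in Myc+E2f/Dp, in Yki*+Dp and in Yki-WT glands, against 832 ± 87.7 TPM in control glands. On scaled values it too was lower, by a log2 change of -0.84 ± 0.09 in Myc+E2f/Dp (adjusted p = 1.2e-05) and -0.77 ± 0.09 in Yki*+Dp (adjusted p = 5.0e-05) against control, with -0.21 ± 0.09 in Yki-WT (adjusted p = 0.18). These changes were in the direction of those of CR43087 and CR43086, under the fold threshold. CG7408, 2523 bases downstream of CR43087, averaged 0.68, 1.77 and 0.62 TPM, against 0.50 TPM in control glands, and its change in Yki*+Dp was upward, 0.76 ± 0.19 (adjusted p = 0.0082).

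**Figure D3:**
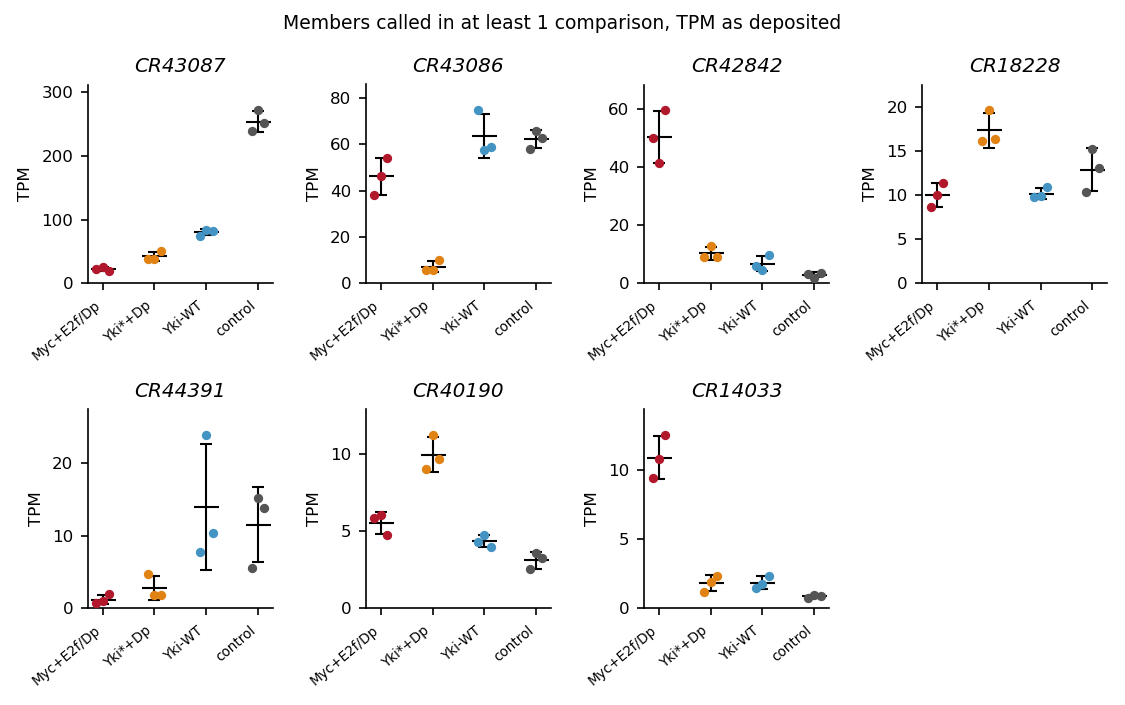
TPM as deposited of the 7 members called in at least 1 comparison, with 1 point per library and the mean ± SD of each group of 3, on axes that start at 0. CR43087 steps up from Myc+E2f/Dp to control, CR43086 is low in Yki*+Dp, CR42842 and CR14033 are high in Myc+E2f/Dp, and CR44391 is low in Myc+E2f/Dp as well as in Yki*+Dp.

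CR42842 had the largest rise among the members. This gene of 387 bases on 3L (19478284 to 19478670, plus strand) was at 50.3, 41.6 and 59.6 TPM in Myc+E2f/Dp glands, 9.13, 13.1 and 9.14 TPM in Yki*+Dp glands and 6.11, 4.58 and 9.78 TPM in Yki-WT glands, against 3.43, 1.96 and 3.53 TPM in control glands. Every library of the other 3 groups lay above every control library. CR42842 rose by 2.97 ± 0.27 (log2, SE) in Myc+E2f/Dp (adjusted p = 3.7e-06) and by 1.23 ± 0.27 in Yki*+Dp (adjusted p = 0.0038), each against control. It was 1.74 ± 0.27 higher in Myc+E2f/Dp than in Yki*+Dp (adjusted p = 2.3e-04).

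In Yki-WT glands CR42842 was at 0.93 ± 0.27 against control with an adjusted p of 0.048, just under the fold threshold. Over 21 alternatives that change ranged from 0.67 (without control replicate 2, adjusted p = 0.16) to 1.183 (without Yki-WT replicate 2, adjusted p = 0.023). It was called in 3 of them, and the adjusted p was 0.05 or more in 14. The Yki*+Dp call in turn missed the fold threshold, at 0.96, without control replicate 2.

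The position of CR42842 limits what its level can be read as. Of its 330 exonic bases, 318 are shared with hpRNA:CR32207 on the opposite strand, a hairpin RNA gene by its name. The library kit keeps strand, but whether the counting used it is not given in the sources used here. The gene hpRNA:CR32207 itself has no entry among the genes of the table. Reads from this pair therefore cannot be told apart. The nearest coding genes, CG32213 and brv1, averaged at most 0.02 TPM in every group. CG12519, 5139 bases upstream, averaged 5.20 TPM in Myc+E2f/Dp glands, against 1.81 TPM in control glands, and its change of 0.53 ± 0.13 was not called.

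CR14033 was close to silent outside Myc+E2f/Dp glands. It was at 9.41, 10.8 and 12.5 TPM in Myc+E2f/Dp, 1.21, 1.87 and 2.34 TPM in Yki*+Dp and 1.48, 1.72 and 2.36 TPM in Yki-WT glands, against 0.760, 0.970 and 0.880 TPM in control glands. The Myc+E2f/Dp libraries were the only ones at 5 TPM, so the rule required them to be high. Its log2 change was 2.06 ± 0.14 in Myc+E2f/Dp against control, given as a description. In Yki-WT against control, which the rule did not need, the change was 0.62 ± 0.14 (adjusted p = 0.016), and in Yki*+Dp against control 0.37 ± 0.14 (adjusted p = 0.054). Neither was called.

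CR14033 is a single exon of 1541 bases on 2L (5242699 to 5244239) inside tkv, on the opposite strand. The tkv gene encodes thickveins, a type I receptor of the BMP pathway, and 158 of the 1541 bases are shared with its exons. It averaged 22.3 ± 6.07 TPM in Myc+E2f/Dp glands, against 8.02 ± 1.10 TPM in control glands, a scaled change of 0.58 ± 0.12 (adjusted p = 0.0018) that was not called.

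CR44391 was low where several of the genes around it were low. This gene of 731 bases on 2R (17135595 to 17136325, plus strand) was at 0.655, 0.971 and 1.91 TPM in Myc+E2f/Dp, 4.67, 1.80 and 1.85 TPM in Yki*+Dp and 7.75, 23.9 and 10.3 TPM in Yki-WT glands, against 5.62, 15.2 and 13.8 TPM in control glands. Myc+E2f/Dp and Yki*+Dp glands lay below every control library, while Yki-WT and control glands overlapped and both varied widely between replicates. CR44391 fell by 2.997 ± 0.41 (log2, SE) in Myc+E2f/Dp (adjusted p = 9.0e-05) and by 2.04 ± 0.41 in Yki*+Dp (adjusted p = 0.0025) against control, and by 2.21 ± 0.41 in Yki*+Dp against Yki-WT (adjusted p = 0.0026). In Yki-WT against control its change was 0.17 ± 0.41 (adjusted p = 0.83).

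Within 6000 bases of CR44391, 4 coding genes were called lower in the same comparisons. That window was set after the values were seen. Acp54A1, an accessory gland peptide gene 1845 bases upstream on the same strand, was at 2.55, 4.34 and 1.58 TPM in Myc+E2f/Dp, 5.34, 1.11 and 3.19 TPM in Yki*+Dp and 71.5, 189 and 74.7 TPM in Yki-WT glands, against 54.2, 94.5 and 141 TPM in control glands. Its log2 change was -5.29 ± 0.48 in Myc+E2f/Dp (adjusted p = 4.1e-06) and -4.93 ± 0.48 in Yki*+Dp (adjusted p = 1.9e-05). CR44391 and Acp54A1 ranked the replicates alike in Yki-WT and in Yki*+Dp glands, and both were lowest in control replicate 1. In Myc+E2f/Dp replicate 3, however, CR44391 was highest, at 1.91 TPM, and Acp54A1 lowest, at 1.58 TPM. The highest control value was in replicate 2 for CR44391 and in replicate 3 for Acp54A1.

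Genes on the other side were lower too. Gbp1, which encodes a growth-blocking peptide, a small cytokine, starts 126 bases downstream and averaged 20.3 ± 6.53 TPM in Myc+E2f/Dp, 15.2 ± 5.99 TPM in Yki*+Dp and 60.7 ± 6.16 TPM in Yki-WT glands, against 48.3 ± 5.57 TPM in control glands. Its change was -2.03 ± 0.28 in Myc+E2f/Dp (adjusted p = 9.05e-05) and -2.03 ± 0.28 in Yki*+Dp (adjusted p = 2.0e-04). CG43103 changed by -2.09 and -1.76, and CG43107 by -1.65 and -1.41, in the same comparisons. CG11400 and Gbp2, which lie as near, were under 3 TPM on average in every group and were called in neither. CG45273 and Cda9, also within the window, averaged at most 0.051 and 0.19 TPM by group and were not tested.

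**Figure D4:**
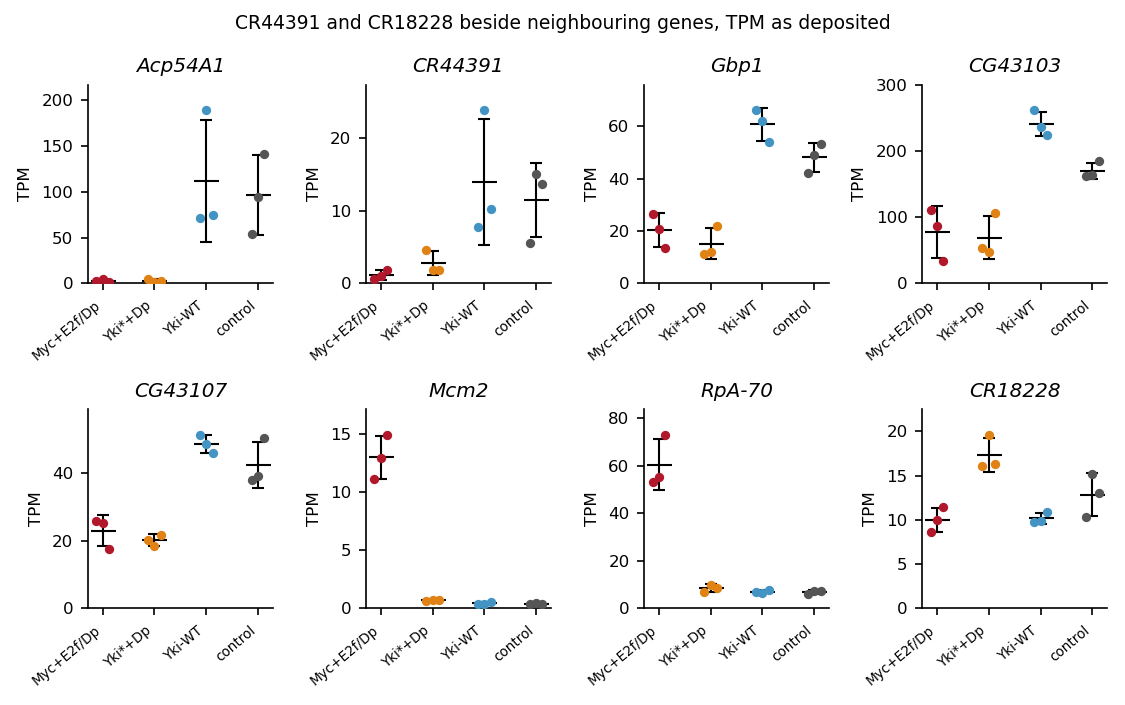
TPM as deposited of CR44391 with 4 neighbours (Acp54A1, Gbp1, CG43103 and CG43107) and of CR18228 with 2 neighbours (Mcm2 and RpA-70), 1 point per library with the mean ± SD of each group of 3. The first 5 genes are low in Myc+E2f/Dp and Yki*+Dp, whereas Mcm2 and RpA-70 are high in Myc+E2f/Dp only and CR18228 is not.

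CR18228 fell in Myc+E2f/Dp glands while some of its neighbours rose. It lies on 3R (8260706 to 8261898, minus strand) and was at 8.64, 9.96 and 11.4 TPM in Myc+E2f/Dp, 16.1, 19.6 and 16.3 TPM in Yki*+Dp and 9.74, 9.92 and 10.9 TPM in Yki-WT glands, against 10.3, 15.2 and 13.1 TPM in control glands. As deposited, the Myc+E2f/Dp and control libraries overlapped. On scaled values they did not, and CR18228 fell by 1.07 ± 0.08 (log2, SE) against control (adjusted p = 1.6e-06) and by 1.12 ± 0.08 against Yki*+Dp (adjusted p = 1.1e-06). On TPM as deposited the change against control was -0.32 (adjusted p = 0.041), and it was not called.

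The gene 222 bases upstream of CR18228 on the same strand is RpA-70, which encodes the large subunit of the single-strand DNA-binding complex RPA. It was at 53.0, 55.4 and 72.8 TPM in Myc+E2f/Dp glands, against 5.82, 7.15 and 7.21 TPM in control glands, a change of 2.21 ± 0.11 (adjusted p = 3.8e-08). Mcm2, a subunit of the replicative helicase 3072 bases away, rose by 2.79 ± 0.07 (adjusted p = 5.0e-10). In Yki*+Dp against control neither was called, at -0.06 ± 0.11 and 0.17 ± 0.07. The overlapping gene mtg, with 13 shared exonic bases on the opposite strand, was at 0.71 ± 0.13 in Myc+E2f/Dp against control (adjusted p = 5.3e-04), which was not called. CG15864, 10382 bases downstream, was at -0.58 ± 0.09 (adjusted p = 2.8e-04), the direction of CR18228 and also not called. The neighbours of CR18228 thus did not share 1 direction.

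CR40190 was highest in Yki*+Dp glands. It lies on 2R (1211067 to 1213666) with 3 annotated transcripts of 4 exons, and the nearest gene of the table downstream, CG40191, is 50474 bases away. It was at 5.85, 6.04 and 4.71 TPM in Myc+E2f/Dp, 9.01, 11.2 and 9.64 TPM in Yki*+Dp and 4.31, 4.74 and 3.98 TPM in Yki-WT glands, against 2.51, 3.57 and 3.24 TPM in control glands. The rule needed the Yki*+Dp libraries, so its log2 changes of 1.11 ± 0.12 in Yki*+Dp against control and -1.09 ± 0.12 in Myc+E2f/Dp against Yki*+Dp are a description. In comparisons that the rule did not need, its change was 0.02 ± 0.12 in Myc+E2f/Dp (adjusted p = 0.89) and 0.36 ± 0.12 in Yki-WT (adjusted p = 0.075) against control.

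The other 9 members were called in no comparison, and some were steady. CR34285, a 6-exon pseudogene of 1366 bases inside the chromatin remodeller gene Ino80 on the opposite strand (3R, 19385917 to 19387559), averaged 64.4 ± 3.32, 60.4 ± 10.4 and 59.97 ± 0.817 TPM in Myc+E2f/Dp, in Yki*+Dp and in Yki-WT glands, against 61.2 ± 8.90 TPM in control glands. It shared no exonic base with Ino80, which averaged 2.25 to 5.24 TPM by group. CR6900 on X (18785805 to 18786210) averaged 25.4 ± 2.61, 19.2 ± 1.93 and 20.5 ± 2.72 TPM, against 23.1 ± 4.40 TPM in control glands, and 69 of its 333 exonic bases are shared with CG6961 on the opposite strand. Relative to the typical gene both were lower in Myc+E2f/Dp than in control, by -0.72 ± 0.14 (adjusted p = 0.0010) for CR34285 and -0.64 ± 0.12 (adjusted p = 6.0e-04) for CR6900, under the fold threshold. On TPM as deposited the same values were 0.08 and 0.14, so the direction for these steady genes rests on the scaling.

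CR43212 belongs to an array of 6 pseudogenes on X, CR43211 to CR43216, each 1891 bases long and spaced 203 bases apart. CR43211, CR43213 and CR43216 were listed with equal values in all 12 libraries, and so were CR43214 and CR43215, so reads of these copies were not told apart and the level of CR43212 is uncertain too. CR43212 averaged 13.01 ± 2.84, 10.5 ± 1.41 and 5.85 ± 0.489 TPM in Myc+E2f/Dp, in Yki*+Dp and in Yki-WT glands, against 5.26 ± 2.11 TPM in control glands. The array as a whole summed to 27.6 ± 7.24, 21.0 ± 1.69 and 12.2 ± 0.473 TPM, against 11.1 ± 1.25 TPM. The change of CR43212 was 0.60 ± 0.16 in Yki*+Dp (adjusted p = 0.014) and 0.47 ± 0.16 in Myc+E2f/Dp (adjusted p = 0.027) against control. Neither was called, and on TPM as deposited the Myc+E2f/Dp value was 1.19 (adjusted p = 1.5e-04).

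CR44383 on X (15796477 to 15796897), which lies between sordd1 and sordd2 and ends 11 bases from sordd2, averaged 10.2 ± 1.60, 7.54 ± 1.45 and 6.36 ± 0.242 TPM, against 6.37 ± 1.42 TPM in control glands. CR41597 on 3L (24553110 to 24554200) averaged 5.96 ± 0.504, 5.19 ± 0.17 and 4.53 ± 0.70 TPM, against 4.40 ± 1.27 TPM. The largest scaled change of either against control was -0.29 ± 0.12, for CR41597 in Myc+E2f/Dp (adjusted p = 0.048), and on TPM as deposited it was 0.39. Against control, both changed sign between the scalings in Myc+E2f/Dp as well as in Yki*+Dp.

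CR46415 is the shortest member, a single exon of 135 bases on 3R (13838388 to 13838522), all of it inside exons of CG31495 on the opposite strand. It was at 3.97, 5.60 and 15.2 TPM in Myc+E2f/Dp, 2.81, 3.18 and 6.22 TPM in Yki*+Dp and 3.73, 4.90 and 6.55 TPM in Yki-WT glands, against 1.33, 2.998 and 5.21 TPM in control glands. Replicate 3 was the highest library in each group, and the groups overlapped throughout. Its change of 0.41 ± 0.42 in Myc+E2f/Dp against control had an adjusted p of 0.40 on scaled values, but on TPM as deposited it was 1.07 with an adjusted p of 0.036, which passed both thresholds.

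CR18217, CR42875 and CR31292 met the rule only with the help of 1 group without being called. CR18217 on 3L (16600448 to 16602723, minus strand), 128 bases from Arts, was at 7.86, 10.4 and 11.6 TPM in Myc+E2f/Dp glands, against 4.12, 4.81 and 4.49 TPM in control glands, and between 3.41 and 4.80 TPM in the 6 libraries of the other groups. CR42875 on 3R (7128087 to 7129166) was at 5.89, 7.82 and 9.77 TPM in Myc+E2f/Dp glands, against 3.20, 3.41 and 4.11 TPM in control glands. CR31292 on 3R (15906240 to 15906750), between the globin gene glob1 and EndoU, was at 6.04, 4.72 and 5.13 TPM in Myc+E2f/Dp glands and at 5.18, 5.12 and 5.22 TPM in Yki-WT glands, against 2.66, 3.27 and 3.53 TPM in control glands. In groups that the rule did not need, CR18217 was at -0.34 ± 0.08 in Yki*+Dp (adjusted p = 0.0060), CR42875 at 0.20 ± 0.13 in Yki*+Dp (adjusted p = 0.24) and CR31292 at -0.05 ± 0.13 in Myc+E2f/Dp (adjusted p = 0.73) against control. The CR31292 value changed sign on TPM as deposited, to 0.60 (adjusted p = 3.7e-04), with all Myc+E2f/Dp libraries above the control libraries. On that scale CR18217 was at -0.02 (adjusted p = 0.88) and CR42875 at 0.51 (adjusted p = 0.017) in Yki*+Dp against control.

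Genes that degrade faulty or untranslated transcripts did not reach the fold threshold on scaled values. Of 27 listed genes of RNA surveillance, the nonsense-mediated decay and exosome factors among them, 22 were in the table by these names and 0 were called by limma in any comparison. At an unadjusted p under 0.05 there were 12 in Myc+E2f/Dp, 5 in Yki*+Dp and 4 in Yki-WT against control, 14 in Myc+E2f/Dp against Yki*+Dp and 2 in Yki*+Dp against Yki-WT. The 12 in Myc+E2f/Dp against control also had an adjusted p under 0.05, from 8.9e-05 (Rrp4, 0.71) to 0.039 (tsu, 0.22). Pcf11 (-0.42) and Rrp6 (-0.20) among them were lower and the rest higher. The share of all genes at either p alone was not counted. The median log2 change of the 22 was 0.12, -0.08 and -0.09 in Myc+E2f/Dp, in Yki*+Dp and in Yki-WT against control. Upf1, the helicase of nonsense-mediated decay, averaged 19.1, 11.4 and 9.52 TPM, against 10.2 TPM in control glands, a scaled change of 0.08 in Myc+E2f/Dp.

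The protein genes of dosage compensation, which in flies acts on the male X through the roX RNAs, were also called in no comparison. All 7 found were tested by limma, and 6 had an unadjusted p under 0.05 in Myc+E2f/Dp and 0 in either Yki group against control, 7 in Myc+E2f/Dp against Yki*+Dp and 0 in Yki*+Dp against Yki-WT. The 6 in Myc+E2f/Dp against control also had an adjusted p of 0.0026 (mle) or less and missed only the fold threshold. The median log2 change of the 7 was 0.35 in Myc+E2f/Dp against control, where msl-2, the male-limited subunit, averaged 11.7 TPM, against 5.0 TPM in control glands. On TPM as deposited 10 of the 22 RNA surveillance genes and 6 of the 7 dosage compensation genes were called in Myc+E2f/Dp against control. On that scale 28.8% of all genes were called higher and 1.33% lower in the same comparison.

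Markers of the gland's cell types also differed between groups, not all in the same direction. Of 7 muscle genes tested, 5 were called lower in Myc+E2f/Dp against control, where 5.94% of all genes were called lower. The summed muscle markers ranged from 196 to 311 TPM in Myc+E2f/Dp, 419 to 483 TPM in Yki*+Dp and 327 to 390 TPM in Yki-WT glands, against 247 to 320 TPM in control glands. Of 6 genes of secondary cells, the rarer epithelial cells of the gland, 3 were called lower in Myc+E2f/Dp against control, with sums of 4591 to 5168 TPM, 6860 to 8991 TPM and 6143 to 7374 TPM, against 8291 to 9282 TPM. Of 5 main cell genes, 2 were called lower there, and of 4 genes of the ejaculatory duct, 2. In Yki*+Dp against control, the duct genes Est-6 (-2.16 ± 0.61, adjusted p = 0.016) and Jhe (2.83 ± 0.19, adjusted p = 2.1e-06) were called, in opposite directions, where 5.52% of all genes were called higher and 1.46% lower. No main cell, secondary cell or muscle gene was called there by limma, though 3 of 5 main cell, 6 of 6 secondary cell and 2 of 7 muscle genes had an unadjusted p under 0.05, with median log2 changes of -0.63, -0.53 and 0.10. All of these but Abd-B (adjusted p = 0.071) also had an adjusted p under 0.05. In Yki-WT against control, 0 main cell, secondary cell, muscle or duct genes were called by limma, where 2.13% of all genes were. There 5 of the 6 secondary cell genes had an unadjusted p under 0.05, and all 5 but CG17575 (adjusted p = 0.062) also an adjusted p under 0.05. The share of all genes at either p alone was not counted. Testis and germline markers summed to 16.8 to 31.8 TPM, 10.8 to 26.5 TPM and 18.3 to 62.9 TPM, against 9.62 to 51.6 TPM, with 0 called against control by limma. No listed marker was at 0 in every library. The part of these cells in the falls of CR43087, CR43086, CR44391 and CR18228 was not tested.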

How the data were processed

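Gene and transcript TPM values of 12 poly-A RNA libraries (4 groups of 3) were deposited by the authors. The submitters' processing notes name cutadapt 1.18, kallisto, sleuth and the build BDGP6, and the kit was stranded. The gene TPM equals the sum over the gene's transcripts, every library sums to 1000000 TPM, and TPM keeps no read depth, so no counting interval is given. Gene types, coordinates and neighbours came from Ensembl release 115 (BDGP6.54), matched by transcript identifier for all 16 members, and from RefSeq by symbol.

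Values were scaled by median-of-ratios factors over 6633 genes and fitted as log2(value + 1) with limma 3.58.1 (R 4.3.3) over all 12 libraries. Genes at 1 TPM or more in at least 3 libraries were tested (8128), with Benjamini-Hochberg adjustment over all of them, and called at adjusted p under 0.05 and a log2 change of at least 1. The procedure was tested on simulated data. Every member is named. For neighbours, overlapping genes, the nearest gene of the table on each side and, for called members, all within 6000 bases were read. Alternatives covered scaling, pseudocount, filter, groups fitted, replicate block, intensity trend, fold threshold and each library left out. The members and gene lists were chosen with earlier results of these data known. No sequences were read, and ejaculatory bulb markers were not analysed here.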

Additional observations from a re-analysis of the deposited data

How the results depend on the processing

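TPM carry no depth, groups hold 3 libraries and small changes depend on scaling, so values near a log2 change of 1 are the least certain. Counts of members called were within 1.5 times the main count under every alternative but these. Without the fold threshold, 11 members passed in Myc+E2f/Dp, 10 in Yki*+Dp and 6 in Yki-WT against control, and 7 in Yki*+Dp against Yki-WT. The share of all genes passing without that threshold was not counted. In Yki-WT against control, 2 were called with pseudocounts of 0.5 and 0.1, and 1 to 2 when a library was left out (2 without Yki-WT replicate 2). On TPM as deposited the RNA surveillance genes called were 10 in Myc+E2f/Dp against control and 3 against Yki*+Dp, and the dosage compensation genes 6 and 2. Of all genes, 28.8% were called higher and 1.33% lower on that scale against control, and 10.3% and 2.87% against Yki*+Dp. Both lists had 0 in the fit on scaled values.

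Of the 21 called changes, 17 involved no group that the rule needed, when groups were taken 1 at a time. The 17 still include calls on CR44391 and CR42842, whose differences the rule favoured. Of 357 refits of the 17, 351 were called again, 6 fell below a threshold and 0 changed sign. Refits of CR14033 and CR40190 in the groups the rule needed say nothing of stability. With CR40190, those lost on TPM as deposited were CR18228 and CR43086 in Myc+E2f/Dp against control (-0.32 and -0.43), CR18228, CR40190 and CR43087 in Myc+E2f/Dp against Yki*+Dp (-0.74, -0.75 and -0.87) and CR43087 in Yki*+Dp against Yki-WT (-0.90). CR40190 in Myc+E2f/Dp against Yki*+Dp also fell below with 75th percentile scaling (-0.996) and without Myc+E2f/Dp replicate 3 (-0.95), and CR42842 in Yki*+Dp against control without control replicate 2 (0.96). TPM as deposited also added CR43212 (1.19) and CR46415 (1.07) in Myc+E2f/Dp against control. It added CR18217 (1.01) in Myc+E2f/Dp against Yki*+Dp and CR40190 (1.03) in Yki*+Dp against Yki-WT. The rule needed Myc+E2f/Dp for CR18217 and Yki*+Dp for CR40190, so the values of that pair are a description. An equal count thus did not mean the same members. With a replicate block 6, 5, 1 and 6 members were called in the 4 comparisons set out at first, as without it. Deviations from the group means correlated at r from -0.31 to 0.51 between libraries of the same number (median 0.098, 18 pairs). Between libraries of different number r was -0.38 to 0.37 (median -0.0845, 36 pairs). These ranges overlap and do not settle whether the numbers pair the samples.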
